A study of Mus musculus with 4 samples.

Results

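Gad1, Gad2, Slc32a1 and Slc6a11 make GABA, load it into vesicles and carry it across the plasma membrane. These 4 of the 27998 genes in the deposited files were taken by symbol, each symbol matched 1 gene, and the choice used no threshold. Their levels, detection and co-detection were read in every library and in cells with and without doublecortin (Dcx), a microtubule protein of young neurons.

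GABA is the main inhibitory transmitter of the adult brain. Gad1 and Gad2 encode the glutamate decarboxylases that turn glutamate into GABA, the Gad1 product spread through the cell and the Gad2 product mostly tied to vesicle membranes. Slc32a1 encodes the vesicular inhibitory amino acid transporter, which fills synaptic vesicles with GABA or glycine. Slc6a11 encodes a sodium-driven transporter that takes GABA up from outside the cell and is best known from astrocytes. In the embryonic forebrain, GABAergic neurons are born in the ganglionic eminence (GE) and many migrate into the cortex, whose own progenitors make mostly glutamatergic neurons and, later, astrocytes.

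The cells came from embryos of heterozygous Nestin-GFP mice crossed with homozygous DCX-mRFP mice, and all 4 groups carried both reporters. Green cells, which the labels call neural progenitors, were sorted from dissociated cerebral cortex or GE, collected at E15.5 or at E18.5, and droplet libraries of 3' ends were made from them. Each labelled region at each age makes 1 group of 1 library, so differences between the 4 groups have no replicate check and were not tested. Sources used here do not give the number of embryos pooled or whether red cells were kept in the sort. Nes, the gene whose regulatory sequence drives the green reporter, had 78.8, 93.0, 107 and 165 counts per 1000000 (CPM), and Dcx had 237, 203, 317 and 199 CPM. Here and wherever 4 values stand together, the order is cortex at E15.5, cortex at E18.5, GE at E15.5, GE at E18.5, by the labels.

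The libraries held 1170, 3139, 879 and 1153 barcodes, of which 1157, 3027, 870 and 1137 were kept as cells, with 29255083, 29427527, 31173997 and 14528712 unique molecular identifiers (UMIs) in all. The median depth of kept cells was 16249, 8667, 23219 and 10085 UMIs, so shares of cells with a UMI are given both as deposited and after each cell was thinned at random to 5000 UMIs, which left out 568 cells of the cortex-labelled E18.5 library and 92 of the GE-labelled E18.5 library. Any pair of libraries shared 0 to 7 barcodes. At least 2 Xist and at least 2 Y-linked UMIs stood together in 24.3%, 1.65%, 41.0% and 5.98% of cells; those cells were deep (medians of 38414, 16922.5, 44797 and 29487.5 UMIs). A barcode with both may hold more than 1 cell, and barcodes with 2 cells of the same sex are not found this way. Where a printed call or share changed most without the cells holding both, the value without them is given beside it. CPM values pool the UMIs of all kept cells in 1 library and are per 1000000 UMIs of genes other than mitochondrial, ribosomal protein and haemoglobin genes. Ranges in brackets are 95% intervals for counting error alone.

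The region labels went against the region genes. Emx1, a transcription factor of cortical progenitors, had 1.35, 1.16, 279 and 38.3 CPM, and Neurod6, a factor of cortical excitatory neurons, had 9.38, 5.46, 824 and 97.3 CPM. Nkx2-1, which specifies the medial GE, had 271, 114, 0.911 and 1.85 CPM, and Dlx2, a factor of GE progenitors, had 999.9, 775, 23.7 and 186 CPM. The cortical genes were thus high in the GE-labelled libraries and the GE genes in the cortex-labelled libraries, and the names of the deposited files also give the other region for every library. Each library is therefore called by its label, as cortex-labelled or GE-labelled, and no direction between regions below can be read as one between tissues. The mismatch was the same at both ages.

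All 4 genes lie on the plus strand of GRCm38 (mm10), by GENCODE M21. Gad2 spans chromosome 2 from 22622205 to 22693874, Gad1 chromosome 2 from 70553072 to 70602014, Slc32a1 chromosome 2 from 158610767 to 158615748 and Slc6a11 chromosome 6 from 114131241 to 114249952. Antisense genes overlap 2 of them, Gad1os over Gad1 (11, 19, 2 and 1 UMIs) and Gm14205 over Slc32a1 (3, 3, 0 and 0 UMIs). The sources used here do not say whether counting used strand, so reads of a gene and its antisense partner may not be told apart.

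Gad1, Gad2 and Slc32a1 were high in the same libraries and cells and Slc6a11 in others, and so the sequence upstream of a RefSeq start of each gene is printed, from RefSeq on GRCm38.p6, plus strand, 5′ to 3′ and without any annotated exon of the gene. The windows are chr2:22622077-22622204 for Gad2 (128 bases), chr2:70561879-70562041 for Gad1 (163 bases, before the RefSeq start at 70562129 and inside the longer GENCODE span), chr2:158610508-158610757 for Slc32a1 (250 bases) and chr6:114130991-114131240 for Slc6a11 (250 bases). Capitals mark matches on either strand to TAATTA, a core of homeodomain factors such as the Dlx proteins, to CANNTG, the E-box of bHLH factors, or to TATAAA, the TATA box.
Gad2: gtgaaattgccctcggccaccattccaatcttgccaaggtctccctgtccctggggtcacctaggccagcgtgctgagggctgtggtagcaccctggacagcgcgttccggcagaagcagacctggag
Gad1: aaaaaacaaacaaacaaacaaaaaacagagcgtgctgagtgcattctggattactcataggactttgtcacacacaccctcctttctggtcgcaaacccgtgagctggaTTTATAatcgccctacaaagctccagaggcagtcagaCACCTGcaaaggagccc
Slc32a1: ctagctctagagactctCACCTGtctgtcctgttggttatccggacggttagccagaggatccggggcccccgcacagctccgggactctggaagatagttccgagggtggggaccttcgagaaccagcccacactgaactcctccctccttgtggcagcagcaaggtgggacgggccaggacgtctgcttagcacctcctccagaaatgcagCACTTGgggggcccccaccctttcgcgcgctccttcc
Slc6a11: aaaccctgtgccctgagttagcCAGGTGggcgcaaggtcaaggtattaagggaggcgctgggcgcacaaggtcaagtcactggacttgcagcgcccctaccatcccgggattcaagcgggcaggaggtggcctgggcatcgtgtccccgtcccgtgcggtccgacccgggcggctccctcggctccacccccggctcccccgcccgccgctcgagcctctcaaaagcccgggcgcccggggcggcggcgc

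TAATTA was in none of the 4 windows, Gad2 held no match at all, and CANNTG was in the other 3. Slc32a1 held CANNTG at 2 places, 233 and 37 bases before the RefSeq start, Gad1 once at 104 bases and Slc6a11 once at 228 bases. TATAAA was in Gad1 only, 141 bases before that start and on the minus strand, where it reads TTTATA in the printed line. Over 32851 promoters, windows of 250 bases held TAATTA in 4.84%, CANNTG in 66.2% and TATAAA in 12.4%; for 163 bases the shares were 3.51%, 52.1% and 7.78%, and for 128 bases 2.75%, 43.9% and 6.38%. CANNTG is thus in most windows of 250 or 163 bases. The base composition differed between the genes, with 71.2% G and C for Slc6a11, 62.5% for Gad2, 62.4% for Slc32a1 and 46.6% for Gad1.

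Gad2 was the best detected of the synthesis genes. It had 190 (185 to 196), 146, 17.3 and 69.9 CPM from 4242, 3273, 400 and 793 UMIs. Gad1 had 34.4 (32.0 to 37.0), 32.6 (30.3 to 35.0), 4.12 (3.33 to 5.04) and 16.0 (13.72 to 18.46) CPM from 767, 728, 95 and 181 UMIs. Counts of 3' ends of different genes also depend on how well each 3' end is captured, so Gad1 and Gad2 are compared below by their ratio between cells and not by their levels. Both genes were high in both cortex-labelled libraries, intermediate in the GE-labelled E18.5 library and low in the GE-labelled E15.5 library. For Gad1 the intervals of both cortex-labelled libraries overlapped.

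The vesicular transporter Slc32a1 kept the same order of libraries, with 69.7, 46.5, 6.85 and 22.1 CPM from 1553, 1039, 158 and 251 UMIs. Slc6a11 had another order, with 6.24, 69.4, 3.08 and 47.7 CPM from 139, 1550, 71 and 541 UMIs. It was high in both E18.5 libraries and low in both E15.5 libraries, whatever the region label.

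**Figure D1:**
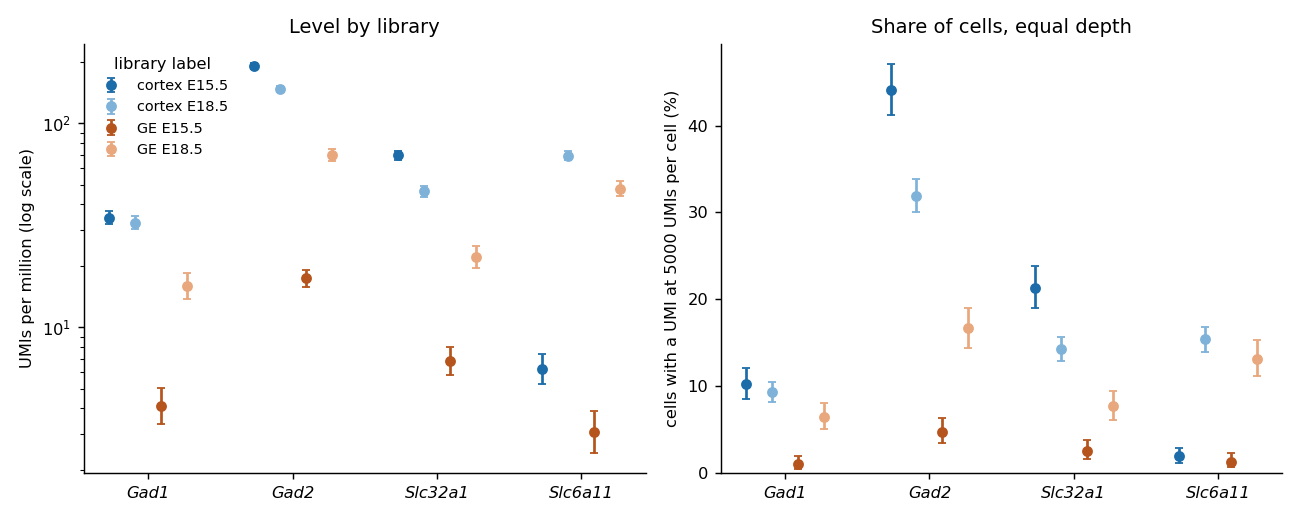
The left panel gives the level of each gene in the 4 libraries, in CPM on a log axis, and the right panel the percentage of cells with a UMI at 5000 UMIs per cell. Points are single libraries, with exact 95% intervals for counting error. Gad1, Gad2 and Slc32a1 are lowest in the GE-labelled E15.5 library, while Slc6a11 is low in both E15.5 libraries (6.24 and 3.08 CPM) and high in both E18.5 libraries (69.4 and 47.7 CPM).

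Detection per cell depended on depth. Gad2 was found in 71.3%, 43.6%, 18.51% and 24.2% of cells, and in 44.2%, 31.9%, 4.71% and 16.7% after thinning to 5000 UMIs. Gad1 was found in 30.4%, 15.6%, 7.82% and 11.1% of cells, and thinned in 10.2%, 9.27%, 1.03% and 6.41%. The gap between both cortex-labelled libraries in Gad1 was thus smaller at equal depth. Slc32a1 was found in 50.6%, 23.2%, 9.77% and 13.0% of cells (thinned 21.3%, 14.2%, 2.53% and 7.66%), and Slc6a11 in 6.74%, 19.6%, 6.32% and 23.0% (thinned 1.90%, 15.4%, 1.26% and 13.1%). The highest count in 1 cell was 32 UMIs for Gad2, 12 for Slc32a1 and 9 for Gad1, each in the cortex-labelled E15.5 library, and 20 for Slc6a11 in the cortex-labelled E18.5 library.

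Free RNA can give UMIs in cells that do not express a gene. In 36 mural-like cells, which should lack all 4 genes, a median depth of 9181.5 UMIs came with Gad1 in 2 cells (5.56%), Gad2 in 2 cells (5.56%) and Slc6a11 in 1 cell (2.78%). Slc32a1 was also in 2 of them (5.56%). The cluster scored almost as high for endothelial as for mural genes (mean log2 folds of 5.42 and 5.53). The UMIs numbered 3 for Gad1, 8 for Gad2, 3 for Slc32a1 and 2 for Slc6a11. With so few positive cells, free RNA cannot be told apart from barcodes that hold more than 1 cell. All of the UMIs were in the 7 mural-like cells of the cortex-labelled E18.5 library, and the 13 of the GE-labelled E15.5 and 16 of the GE-labelled E18.5 library held 0 UMIs of each gene, so these few cells give no background level for the other libraries. In the GE-labelled E15.5 library the UMIs were not spread evenly. The 10% of cells with the most Gad2 held 80.5% of its UMIs, and cells with Gad2 had a median depth of 40054 UMIs against 21369 in cells without.

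Slc6a11 was higher at E18.5 than at E15.5 under both region labels, and Gad2 and Slc32a1 passed the same call in the GE-labelled libraries; the difference between the labelled regions was not tested. A gene counts as called if the ratio of CPM was at least 2-fold, its interval excluded 1 and it reached 20 CPM in at least 1 of the 2 libraries. In the cortex-labelled libraries, E18.5 over E15.5 was 0.946 (0.854 to 1.05) for Gad1, 0.769 (0.735 to 0.805) for Gad2 and 0.667 (0.616 to 0.722) for Slc32a1, none past 2-fold. Slc6a11 was 11.1-fold higher (9.34 to 13.3). Of 7239 genes measured in this comparison 4.41% were called higher and 0.332% lower, so 1 of 4 members was called beside these shares.

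In the GE-labelled libraries, Gad2 was 4.03-fold (3.57 to 4.56), Slc32a1 3.23-fold (2.64 to 3.97) and Slc6a11 15.49-fold (12.1 to 20.1) higher at E18.5. Gad1 had a ratio of 3.87 (3.004 to 5.02) but stayed under 20 CPM at both ages and is not counted. So 3 of 4 members were called higher, where 8.84% of 7815 genes were called higher and 2.62% lower. The Slc32a1 call was lost where totals ran over all genes or were scaled by TMM, since its log2 ratio stayed at 1.78 and 1.51 but its level fell under 20 CPM. Scaling by TMM moved all log2 ratios by -0.14 in the labelled cortex and by -0.18 in the labelled GE comparison. It changed the split of calls over all genes from 319 higher and 24 lower to 249 and 54, and from 691 higher and 205 lower to 469 and 299.

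Marker genes of cell types also differed with age. Of the 10 measured genes of a 12-gene astrocyte list, 10 were called higher at E18.5 in the cortex-labelled libraries and 9 in the GE-labelled ones, and the summed level of the list was 328, 3058, 646 and 3079 CPM. Aqp4, a water channel of astrocytes, had 0.449, 28.2, 0.954 and 29.4 CPM. Genes of a 14-gene GABAergic neuron list summed to 2726, 2377, 1364 and 1610 CPM, with 0 of 12 measured genes called with age in the cortex-labelled libraries and 8 of 11 called higher in the GE-labelled ones. Meis2 of that list alone had 602, 650, 1013 and 788 CPM and was highest where the sum was lowest. An 8-gene GE intermediate progenitor list summed to 4410, 3521, 1041 and 1484 CPM. Hes6 and Btg2 made up most of its sum in the GE-labelled E15.5 library (535 and 364 CPM). Both sums thus spread less between libraries than the remaining genes of these lists. A 9-gene oligodendrocyte list summed to 214, 621, 63.1 and 2042 CPM, with 2 of 3 and 8 of 8 measured genes called higher with age, and an 8-gene GE radial glia list to 3803, 8253, 4863 and 13380 CPM, with 2 of 8 and 5 of 7 called higher and 1 and 0 lower. An 8-gene cortical radial glia list summed to 2815, 7573, 5380 and 12918 CPM, with 1 of 6 and 4 of 8 called higher and 0 and 1 lower. Fabp7, which stands in both radial glia lists, alone had 1588, 6062, 2711 and 10082 CPM, so both sums mostly follow this gene. Slc6a11 thus moved beside most genes of the astrocyte list and beside the sums of the other glial lists. The part of these lists in the differences between whole libraries was not tested, and levels within cell classes are given further on.

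Between the labelled regions at E15.5, Gad1 was 8.36-fold (6.75 to 10.5), Gad2 10.98-fold (9.91 to 12.2) and Slc32a1 10.2-fold (8.63 to 12.1) higher in the cortex-labelled library. Slc6a11 had 2.03 (1.51 to 2.74) times the level there but stayed under 20 CPM. The share of all 7305 genes called was 5.24% higher and 6.09% lower, and TMM moved log2 ratios by 0.12. At E18.5 the same 3 genes were 2.04-fold (1.73 to 2.42), 2.10-fold (1.94 to 2.27) and 2.10-fold (1.83 to 2.42) higher in the cortex-labelled library, just past the 2-fold line, and Slc6a11 was 1.45-fold (1.32 to 1.61), below it. The share of all 7709 genes called was then 1.41% higher and 3.74% lower (109 and 288 genes, or 177 and 186 under TMM, which moved log2 ratios by 0.16). The 3 calls at E18.5 were lost when cells were weighted equally or thinned, with log2 ratios from 0.71 to 0.92. The direction of each of these ratios would turn round if the region labels were exchanged.

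Splitting each library by Dcx separated the 3 synthesis and vesicle genes from Slc6a11. Cells with at least 1 Dcx UMI numbered 727, 1301, 736 and 413, and cells with none 430, 1726, 134 and 724. Their median depths were 19800 against 13755.5, 7587 against 9319.5, 26797 against 15790 and 8988 against 10379 UMIs. Cells with Dcx were therefore deeper in the E15.5 libraries and shallower in the E18.5 libraries. Dcx is absent in part of the cells by sampling alone, so the cells without it include some that express it.

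In the cortex-labelled E18.5 library, Gad1 had 73.8 CPM in cells with Dcx and 4.45 in cells without, a 16.6-fold difference (12.7 to 22.0). Gad2 had 285 and 52.1 CPM (5.46-fold, 5.02 to 5.94), and Slc32a1 had 99.0 and 10.6 CPM (9.32-fold, 7.80 to 11.2). Slc6a11 went the other way, with 21.2 CPM in cells with Dcx and 102 in cells without, 4.83-fold (4.15 to 5.65) higher in the latter. Of 7491 genes, 4% were called higher in cells with Dcx and 7.32% lower.

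For Gad1, Gad2 and Slc32a1 the GE-labelled E18.5 library held steeper contrasts than either cortex-labelled library. Gad1 had 36.9 CPM with Dcx and 1.35 without (27.4-fold, 14.1 to 60.9), Gad2 had 154 and 11.1 (13.9-fold, 10.9 to 17.9), and Slc32a1 had 51.9 and 1.35 (38.5-fold, 19.95 to 85.2). Slc6a11 had 28.1 and 61.4 CPM, 2.19-fold (1.79 to 2.68) higher without Dcx. Here 4.83% of 7922 genes were called higher with Dcx and 1.77% lower.

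At E15.5 in the cortex-labelled library, the contrasts were smaller for Gad2. It had 224 CPM with Dcx and 80.7 without (2.77-fold, 2.51 to 3.08), against 43.3 and 5.56 for Gad1 (7.78-fold, 5.37 to 11.7) and 84.2 and 22.2 for Slc32a1 (3.79-fold, 3.13 to 4.62). Slc6a11 had 4.46 and 12.1 CPM, below 20 on both sides. Of 6945 genes 3.02% were called higher and 1.21% lower. In each of these 3 libraries the Gad2 ratio was the smallest of the synthesis and vesicle genes.

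The GE-labelled E15.5 library had all 4 genes under 20 CPM on both sides of the split, so none was called, where 5.49% of 7544 genes were called higher and 6% lower. Gad2 had 18.6 CPM with Dcx and 2.75 without, and without the cells holding both Xist and Y-linked UMIs it passed the call with a log2 ratio of 2.85. Gad1 had 4.47 CPM with Dcx and 0 UMIs without, at least 2.71-fold higher against a floor of 3 counts over the group, and Slc32a1 had 7.44 CPM and 0 UMIs, at least 4.51-fold higher. Slc6a11 had 2.68 CPM with Dcx and 7.69 without.

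**Figure D2:**
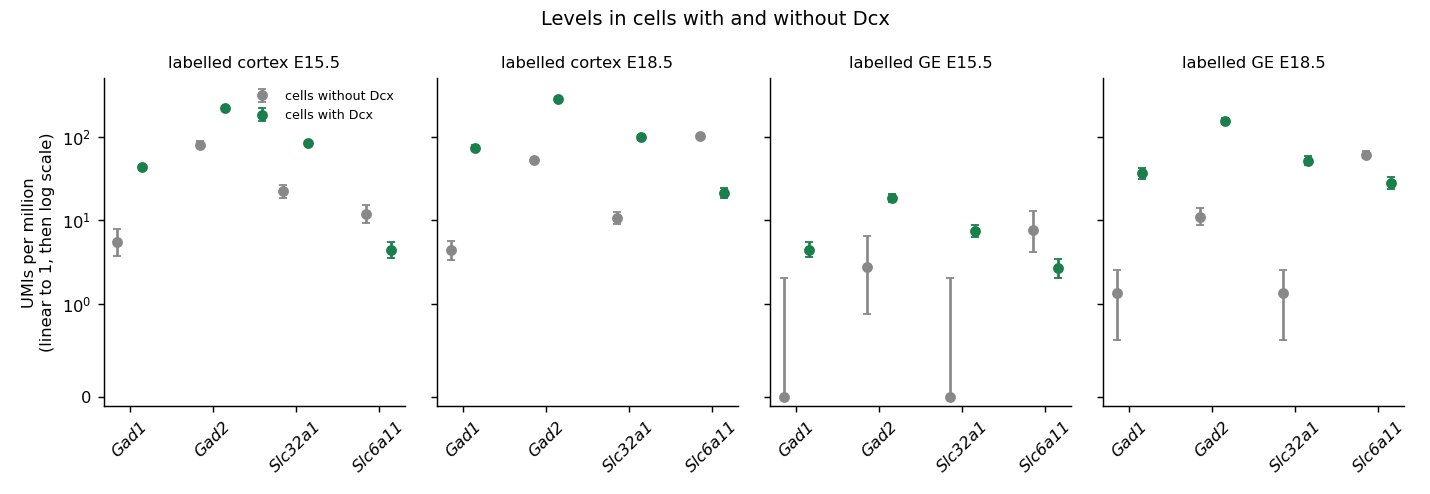
CPM of each gene in cells with and without a Dcx UMI, per library panel, on a log axis with exact 95% Poisson intervals for counting error. The axis is linear up to 1 CPM. Gad1, Gad2 and Slc32a1 have higher CPM with Dcx in each of the 4 panels, and Slc6a11 without it, for example 102 against 21.2 CPM in the cortex-labelled E18.5 library.

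At equal depth, detection of the synthesis genes climbed with the number of Dcx UMIs. In the cortex-labelled E18.5 library, Gad1 was found in 2.53% of cells with 0 Dcx UMIs per 5000, in 14.2% with 1, in 24.8% with 2 and in 35.8% with 3 or more. Gad2 went from 17.9% to 47.5%, 70.1% and 78.0%, and Slc32a1 from 5.05% to 23.6%, 33.1% and 48.6%. Slc6a11 went down, from 20.3% to 6.29%, 3.18% and 2.48%. The GE-labelled E18.5 library had the same directions from 0 to 3 or more Dcx UMIs, with Gad2 at 4.51%, 16.9%, 41.0% and 66.9% and Slc6a11 at 16.3%, 6.74%, 7.69% and 3.07%. In the cortex-labelled E15.5 library Gad2 was already found in 32.5% of cells with 0 Dcx UMIs and reached 71.7% with 3 or more.

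Most Slc6a11 UMIs lay outside Dcx cells at E18.5. Cells without Dcx held 45.3%, 87.6%, 19.7% and 75.8% of Slc6a11 UMIs, against 9.92%, 21.1%, 1.25% and 9.33% of Gad2 UMIs. Cells without Dcx numbered 430, 1726, 134 and 724, so these shares do not compare the ages. By CPM, Slc6a11 was 2.71-fold, 4.83-fold, 2.87-fold and 2.19-fold higher without Dcx, with both E15.5 ratios from levels under 20 CPM. In the GE-labelled E15.5 library only 134 of 870 cells lacked Dcx. Slc6a11 had 7.69 CPM in them (14 UMIs) against 2.68 CPM in cells with Dcx (57 UMIs).

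The synthesis and vesicle genes were often detected in the same barcodes. In the cortex-labelled E18.5 library, Gad2 was found in 79.2% of cells with Gad1 and 37.0% of cells without, and Slc32a1 in 41.2% of cells with Gad2 and 9.31% without. Slc6a11 was found in 6.90% of cells with Gad2 and 29.3% without, and in 6.99% of cells with Gad1 and 21.9% without. In the GE-labelled E18.5 library, Gad2 was found in 89.7% of cells with Gad1 and 16.0% without, and Slc6a11 in 13.5% of cells with Gad2 and 26.1% without. Leaving out cells with both Xist and Y-linked UMIs moved the last pair to 7.82% and 25.2%, which passes 2-fold, and that for Gad1 and Slc6a11 from 15.9% and 23.9% to 8.57% and 22.6%. In the cortex-labelled E15.5 library Slc6a11 went from 6.06% of cells with Gad2 and 8.43% without to 3.20% and 7.99% in the same way. Of the cells with none of Gad1, Gad2 and Slc32a1, 480 and 221 held Slc6a11 in the cortex-labelled and GE-labelled E18.5 libraries. That is most of the 592 and 262 cells with Slc6a11, where cells with none of those genes were 49.3% and 73.8% of all cells.

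After thinning to 5000 UMIs, Gad2 was found in 70.3% of cells with Gad1 against 41.2% without in the cortex-labelled E15.5 library, in 76.8% against 27.3% in the cortex-labelled E18.5 library and in 82.1% against 12.2% in the GE-labelled E18.5 library. Slc6a11 was found in 0.196% (1 of 511) of cells with Gad2 against 3.25% without, in 3.95% against 20.7%, and in 4.02% against 14.9% of the same 3 libraries. With Gad1, Slc6a11 turned direction in the cortex-labelled E15.5 library, from 9.38% of cells with Gad1 and 5.59% without to 0.847% and 2.02% when thinned, and with Slc32a1 from 7.01% and 6.47% to 1.21% and 2.09%. The GE-labelled E15.5 library had too few cells after thinning, since Gad2 was found in 1 of 9 cells with Gad1 there and in 4.65% of cells without. For Gad2 and Slc32a1 in that library the thinned shares were 17.1% of cells with Gad2 and 1.81% without.

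The relation was not symmetric. Gad2 was found in 94.3%, 79.2%, 80.9% and 89.7% of cells with Gad1, but Gad1 in only 40.2%, 28.4%, 34.2% and 41.1% of cells with Gad2. A gene with fewer UMIs is missed more often, so this asymmetry alone does not separate cells with Gad2 only from cells in which Gad1 was missed. Gad1, Gad2 and Slc32a1 stood together in 284, 216, 37 and 76 cells (24.5%, 7.14%, 4.25% and 6.68%), and in 14.8%, 6.82%, 3.12% and 5.33% of cells once those with both Xist and Y-linked UMIs were left out. None of the 3 was found in 22.6%, 49.3%, 78.6% and 73.8% of cells.

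**Figure D3:**
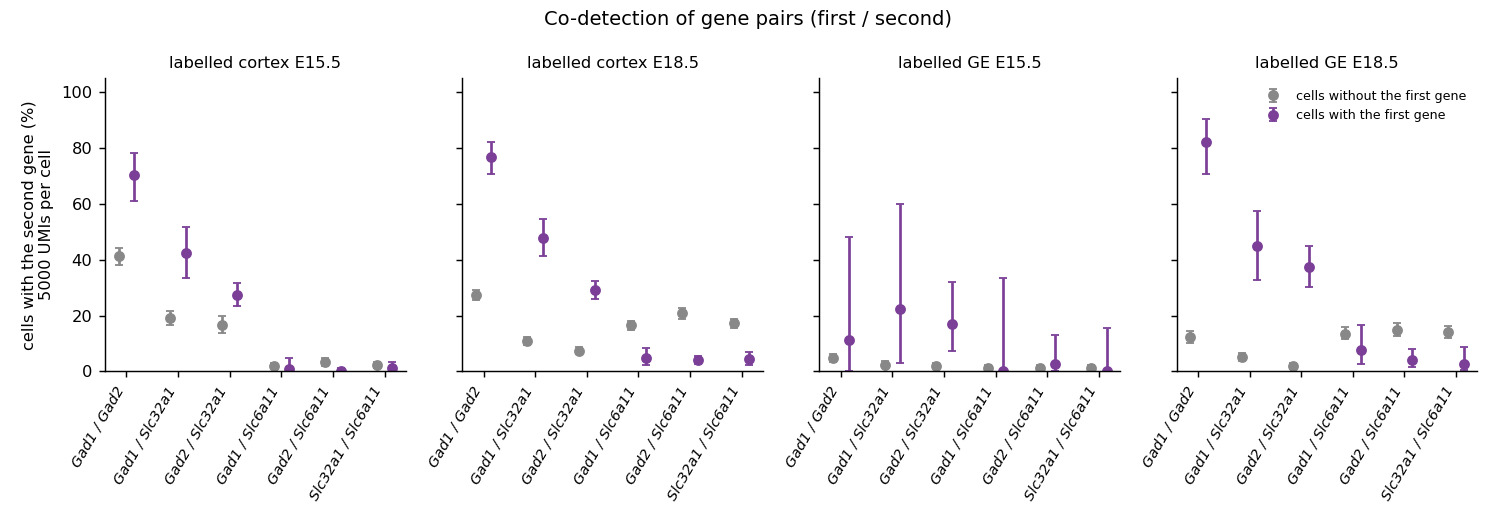
Share of cells with a UMI of the second gene of each pair, among cells with and without the first, per library, after thinning each cell to 5000 UMIs; bars are exact 95% binomial intervals for counting error. Gad2 is found in 76.8% of cells with Gad1 against 27.3% without in the cortex-labelled E18.5 library, and Slc6a11 in 3.95% of cells with Gad2 against 20.7% without.

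All kept cells were clustered without the 4 genes, so that their levels by cluster were not used to make the clusters. Of 22 clusters, those with enough known markers were named after a cell class with "-like". GABAergic neuron-like cells (clusters 6, 15 and 20) numbered 38, 480 and 144 in the cortex-labelled E15.5 and E18.5 and the GE-labelled E18.5 libraries. In them Gad1 had 171, 199 and 149 CPM, Gad2 461, 478 and 542 CPM, Slc32a1 222, 209 and 219 CPM and Slc6a11 2.04, 6.68 and 1.39 CPM. The 3 synthesis and vesicle genes were thus above their whole-library level in all 3 libraries, and Slc6a11 below it. These levels depended on the clusters. Over all libraries Gad1, Gad2 and Slc32a1 had 184, 489 and 213 CPM in this class, and as little as 87.6, 311 and 124 CPM over 3 alternatives. At 5000 UMIs Gad2 was found in 87.0% and 86.5% of these cells at E18.5, but only 231 of 480 and 104 of 144 were deep enough to be thinned, so the thinned shares of whole libraries hold fewer of them.

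Ratios were next taken within that class. E18.5 over E15.5 in the cortex-labelled libraries was 1.16 (0.917 to 1.48) for Gad1, 1.04 (0.898 to 1.203) for Gad2 and 0.942 (0.764 to 1.17) for Slc32a1. None passed 2-fold, where 3.26% of 7110 genes were called higher and 2.11% lower in the same cells. At E18.5, labelled cortex over labelled GE was 1.34 (1.08 to 1.67) for Gad1, 0.882 (0.785 to 0.993) for Gad2 and 0.954 (0.795 to 1.15) for Slc32a1, with 3.33% of 7151 genes called higher and 3.99% lower. All 3 ratios were thus closer to 1 than the 2.04 to 2.10 of the whole libraries. Different clusters make up the class, with 391 of 480 cells labelled cortex E18.5 in cluster 6 and 134 of 144 labelled GE E18.5 in cluster 15, so the last comparison is mostly one between those clusters. The class made up 15.9% of the cells labelled cortex E18.5 and 12.7% of those labelled GE E18.5. The E15.5 class rests on 38 cells. With finer clusters the log2 ratios between the ages moved from 0.21 to 1.69 for Gad1, from 0.05 to 0.82 for Gad2 and from -0.09 to 0.98 for Slc32a1.

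GE intermediate progenitor-like cells (clusters 1, 2, 8, 11 and 12) numbered 499, 1481 and 92 in the same 3 libraries. Gad2 stood at 132, 156 and 179 CPM there, Slc32a1 at 38.7, 36.8 and 23.1 and Gad1 at 9.76, 16.2 and 10.98, while Slc6a11 had 1.85, 6.73 and 2.20 CPM. Compared with GABAergic neuron-like cells, Gad2 was a few times lower and Gad1 lower still. In cluster 1 of this class the same genes lay further apart, with Gad2 at 114, 134 and 79.4 CPM and Gad1 at 4.97, 4.64 and 0. Most cells of the class stood in cluster 2 at E15.5 (290 of 499) and in clusters 1 and 8 at E18.5 (479 and 350 of 1481) in the cortex-labelled libraries. Cluster 11, with 243 of its 267 cells in the cortex-labelled E18.5 library, had Gad1 at 68.2, Gad2 at 401 and Slc32a1 at 99.2 CPM there.

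Cluster 5, with 418 of its 446 cells in the cortex-labelled E15.5 library, was led by Nkx2-1 and Lhx8. It stayed unnamed because GE intermediate progenitor genes led GABAergic neuron genes by too little (mean log2 folds of 0.85 and 0.80) and had 1 marker against 3 among its top 10 genes. In that library it held Gad1 at 43.5, Gad2 at 232 and Slc32a1 at 84.4 CPM, at a median depth of 28644 UMIs. Unnamed clusters were 50.3% of the cells of that library, at a median depth of 22207.5 UMIs. They held 80.1% of Gad1, 75.4% of Gad2 and 77.1% of Slc32a1 UMIs of that library. Their levels were 40.3, 210 and 78.6 CPM, against 34.4, 190 and 69.7 CPM in the whole library. In the cortex-labelled E18.5 library, GABAergic neuron-like cells held 61.3% of Gad1 UMIs but 32.8% of Gad2 UMIs, and GE intermediate progenitor-like cells, 48.9% of its cells, held 56.0% of Gad2 UMIs. The latter class includes cluster 11, in which 89.1% of cells held Dcx. In the GE-labelled E18.5 library, GABAergic neuron-like cells held 59.1% of Gad1, 49.2% of Gad2 and 62.9% of Slc32a1 UMIs.

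The GE-labelled E15.5 library had too few cells of either class to give a level. Gad2 had 19.1 CPM in its cortical intermediate progenitor-like cells, 13.5 in its cortical excitatory neuron-like cells and 2.65 in its cortical radial glia-like cells. Gad1 was at 0 UMIs in the 90 cells of the last, which allows up to 2.65 CPM, or 3.33% of cells with a UMI, and sets no limit on cells that express it. Cortical intermediate progenitor-like cells held 74.2% of the Gad2 UMIs, but they were also 63.8% of the cells of this library. Their 19.1 CPM stood near the 17.3 CPM of the whole library. Of the cells of this library 41.0% held both Xist and Y-linked UMIs. Without those cells and without thinning, Gad2 was found in 92.6% of cells with Slc32a1 and 7.41% of cells without. Barcodes with several cells of the same sex stay in, so these shares do not place both genes in the same cell.

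**Figure D4:**
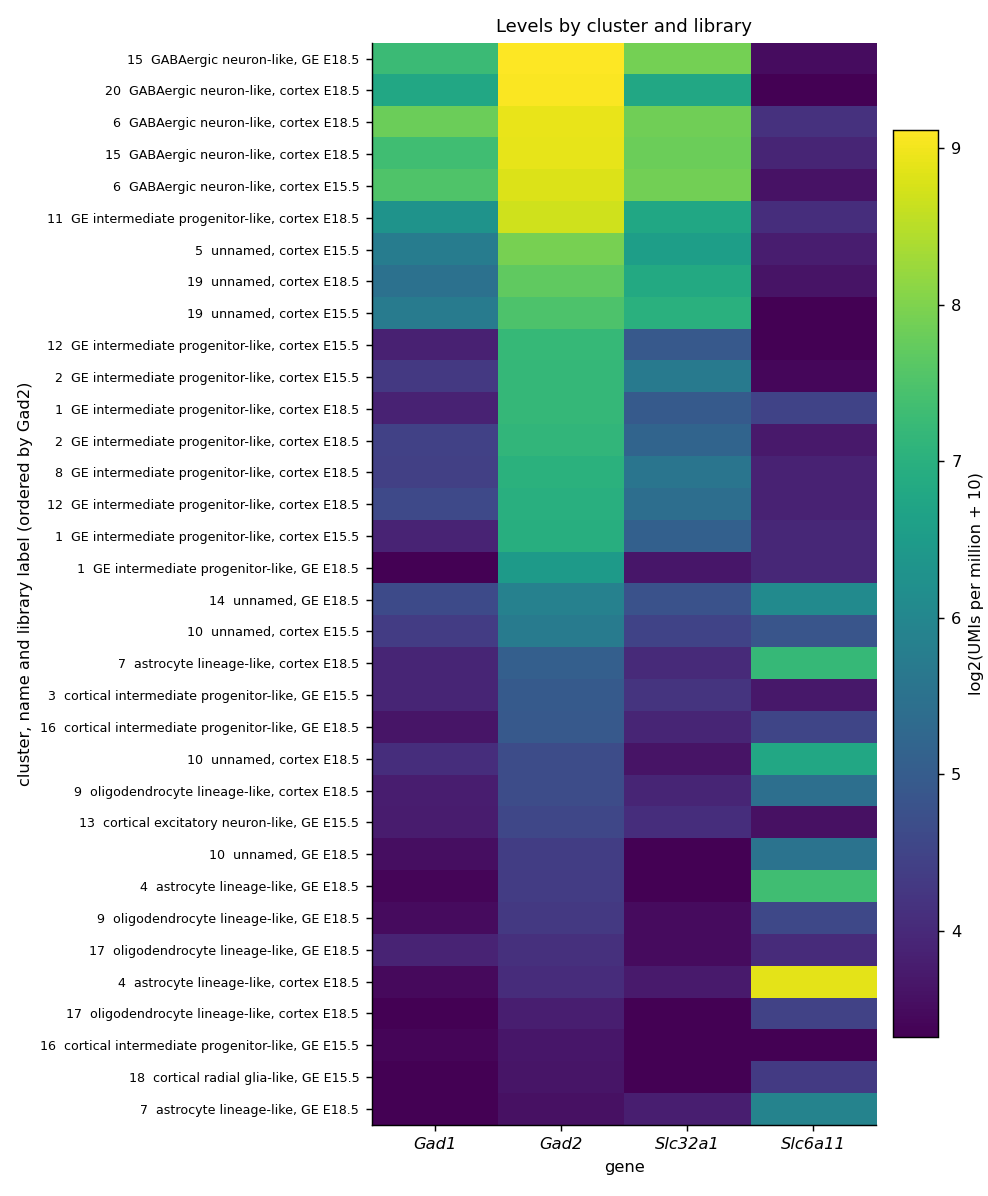
Level of each gene in each cluster-by-library group of at least 30 cells, as the colour of log2(CPM + 10), with the groups in rows ordered by Gad2. Gad1, Gad2 and Slc32a1 are high in the GABAergic neuron-like clusters, Gad2 also in the GE intermediate progenitor-like clusters, and Slc6a11 in the astrocyte lineage-like clusters.

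Among named classes, Slc6a11 was highest in astrocyte lineage-like cells. Astrocyte lineage-like cells (clusters 4 and 7) numbered 618 in the cortex-labelled E18.5 library and 225 in the GE-labelled E18.5 library, and Slc6a11 had 263 and 128 CPM in them. It was found in 54.0% (49.6 to 58.4) and 34.3% (27.9 to 41.2) of them at 5000 UMIs. Those cells held 79.7% of Slc6a11 UMIs in the cortex-labelled E18.5 library, where they were 20.4% of cells, and 52.3% in the GE-labelled E18.5 library, where a further 39.9% lay in unnamed clusters. Gad2 had 17.0 and 8.60 CPM and Gad1 3.62 and 0.453 CPM in the same cells. Cluster 7, with 369 of the 618 and 40 of the 225 cells, also scored for ependymal genes. Its mean log2 fold was 2.28 for astrocyte and 1.78 for ependymal genes, and its top 10 genes held 1 and 0 of them. Values of the class may thus include ependymal-like cells.

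Within astrocyte lineage-like cells, Slc6a11 was 2.05-fold (1.80 to 2.34) higher in the cortex-labelled E18.5 library than in the GE-labelled E18.5 library, where 3.23% of 7807 genes were called higher and 2.14% lower. With coarser clusters the log2 ratio was 0.93, under the 2-fold line. By cluster it was 460 against 150 CPM in cluster 4 (3.06-fold, 2.65 to 3.53) and 138 against 50.5 CPM in cluster 7 (2.73-fold). The difference within each cluster was thus larger than in the class as a whole, since cluster 7, where the gene was lower, held 369 of 618 cells in the first library and 40 of 225 in the second. Between these whole libraries, 0 of the 10 measured genes of the astrocyte list were called higher and 2 lower, and Slc6a11 (1.45-fold) was not called either. Ratios of the list genes within the class are not given, so these calls do not set Slc6a11 apart from them.

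Other glial cells held less Slc6a11. Oligodendrocyte lineage-like cells had 28.3 CPM in the cortex-labelled E18.5 library and 11.4 in the GE-labelled E18.5 library (2.48-fold, 1.42 to 4.36). Pdgfra, a receptor of oligodendrocyte precursors, had 8.98, 23.9, 7.55 and 141 CPM in the whole libraries. Unnamed cluster 14, with 194 of 209 cells in the GE-labelled E18.5 library and led by Slco1c1, Tnc and Hopx, had Slc6a11 at 57.9 CPM in that library beside Gad1 at 14.8, Gad2 at 47.9 and Slc32a1 at 17.5 CPM. Slc6a11 and the synthesis genes stood in the same cluster there, which does not show that they stood in the same cells. Unnamed cluster 10 was led by microglial genes such as C1qc and Csf1r, although 80.4% of its cells held a UMI of the proliferation gene Mki67. Slc6a11 stood there at 18.8, 101 and 36.4 CPM in the cortex-labelled E15.5 and E18.5 and the GE-labelled E18.5 libraries. The whole GE-labelled E18.5 library held 0 UMIs of C1qc and of Csf1r, so those genes do not describe its 59 cells of cluster 10. Among the scored classes, the highest mean log2 folds of cluster 10 were for oligodendrocyte lineage (0.68) and GE radial glia genes (0.55).

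The balance of the 2 decarboxylase genes differed between cell classes. Of all Gad1 and Gad2 UMIs, Gad1 made up 15.3%, 18.2%, 19.2% and 18.6% in the 4 libraries, a narrow range beside the spread of their levels. In cells with Dcx it made up 16.2%, 20.6%, 19.4% and 19.3%, and in cells without Dcx 6.44%, 7.86%, 0 of 5 UMIs and 10.8%. Because both genes are counted in the same cells, depth cancels from this share.

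By class, Gad1 made up 6.89% (5.27 to 8.81), 9.39% (8.16 to 10.7) and 5.78% (2.81 to 10.4) in GE intermediate progenitor-like cells of the cortex-labelled E15.5 and E18.5 and the GE-labelled E18.5 libraries. In GABAergic neuron-like cells it made up 27.1% (22.2 to 32.4), 29.4% (27.1 to 31.7) and 21.5% (17.99 to 25.4). The intervals of the 2 classes did not overlap in any of the 3 libraries. By cluster over all libraries the share went from 3.41% (2.15 to 5.11) in cluster 1 through 7.03% to 8.12% in clusters 2, 8 and 12 and 15.6% (12.96 to 18.47) in cluster 11 to 30.96% (28.7 to 33.3) in cluster 6. Unnamed cluster 5 stood at 15.8% (14.6 to 17.0), near cluster 11 and GABAergic neuron-like cluster 20 (14.2%). The cortical intermediate progenitor-like cluster 3 and the cortical excitatory neuron-like cluster 13 stood at 19.7% and 21.1%. Clusters rich in Top2a, a gene of dividing cells, did not all have a low share. A Top2a UMI was in 100% of cells of cluster 2, 90.4% of cluster 5 and 8.28% of cluster 6. These Top2a percentages were not thinned, and median depth was 14691, 27692 and 5052 UMIs in these clusters. Of the cells of cluster 5, 94.6% also held Dcx. Most came from the cortex-labelled E15.5 library, where 24.3% of cells held both Xist and Y-linked UMIs. Barcodes with more than 1 cell were not told apart there, so the share of cluster 5 may not be one of dividing cells alone.

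**Figure D5:**
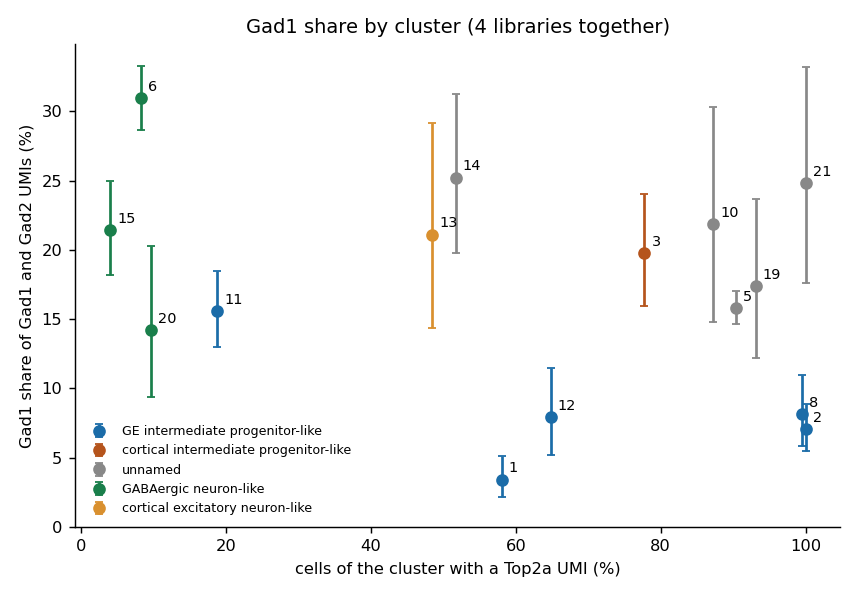
Gad1 UMIs as a percentage of Gad1 and Gad2 UMIs together, by cluster over all libraries, on the vertical axis with exact 95% binomial intervals for counting error, against the percentage of cells of the cluster with a Top2a UMI; numbers name clusters and colours their class. The share runs from 3.41% in cluster 1, GE intermediate progenitor-like, to 30.96% in cluster 6, GABAergic neuron-like. Top2a detection was not thinned to equal depth.

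Other genes of GABA metabolism were read from 10 lists. Of the 8 measured genes for glutamate and glutamine supply, 5 were higher and 0 lower with age in each labelled region, with a median log2 ratio of 1.29 and 1.40 against 0.04 and 0.07 for all measured genes. The glutamate transporter Slc1a2 was 7.68-fold and 13.9-fold higher in the cortex-labelled and GE-labelled libraries, Slc1a3 was 4.75-fold and 3.91-fold, glutamine synthetase (Glul) 2.80-fold and 4.53-fold and the glutamine transporter Slc38a3 3.38-fold and 2.96-fold. Slc1a2 and Slc1a3 also stand in the astrocyte list. Between labelled regions 0 of 6 measured genes of this list at E15.5 and 0 of 8 at E18.5 were called.

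Transcription factors of GABAergic fate were high in the libraries where the synthesis genes were high. With age, 0 of 15 were higher and 2 lower in the cortex-labelled libraries, Lhx8 at 0.207 and Nkx2-1 at 0.422 of the earlier level, and 10 of 11 were higher in the GE-labelled ones, among them Gsx2 at 15.2-fold and Dlx1 at 9.87-fold. At E15.5, 14 of 15 were higher in the cortex-labelled library than in the GE-labelled library, and at E18.5, 7 of 13 were higher and 1 lower. The median log2 ratio of the list was -0.45 and 2.23 with age and 4.97 and 1.61 between labelled regions, the last pair beside -0.10 and -0.09 for all measured genes.

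Among other membrane transporters of the family, Slc6a12 had 0 UMIs in every library, and Slc6a13, a transporter of the meninges and liver, had 0, 1, 0 and 1. Slc18a2, the vesicular monoamine transporter, was 78.1-fold and 17.8-fold higher in the cortex-labelled library at E15.5 and E18.5, and Slc17a6, a vesicular glutamate transporter, had 0.314, 0.537, 41.4 and 9.17 CPM. Slc18a2 was thus high in the libraries with high GE genes and Slc17a6 in those with high cortical genes.

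Few receptor genes were measured. Of 17 GABA-A subunits 1, Gabrb1, reached 20 CPM, and it was 40.5-fold higher with age in the cortex-labelled libraries (20.01 against 0.494 CPM) and had 28.4 against 5.12 CPM in the GE-labelled ones. Of the genes that break GABA down, Adhfe1 was 8.87-fold higher with age in the cortex-labelled libraries, and Abat, GABA transaminase, was 2.99-fold higher with age in the GE-labelled ones and 2.45-fold higher in the cortex-labelled library at E15.5. In the list of vesicle loading and release, 0 of 3 measured genes were called with age in the cortex-labelled libraries, and 0 higher and 1 lower of 4 in the GE-labelled ones. Receptor trafficking had 0 of 6 and 1 of 6 called higher with age.

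Genes with the most similar pattern were found across 34 cluster-by-library groups by Pearson's r of log2(CPM + 10), over 10055 genes; these groups share libraries and differ in depth, and r is a description. Slc32a1 was the gene most like Gad1 (r 0.95), followed by Enox1, Tmem169, Reps2, Gng2, Mapk10, Plcxd3 and Gucy1a3 (0.90). Gad2 was most like Sp9 (0.97), then Dlx5, Dlx6os1, Dlx6, Slc32a1, Nrxn3 and Zfp618 (0.91), and Gad1 came only at rank 14 (0.86). Slc32a1 was most like Gad1 and Gad2, then Pfn2, Nrxn3, Enox1, Sp9, Zfp618 and Dlx5. Gad2 thus ran beside transcription factors of the GE, while the genes nearest Gad1 held none of the Dlx family.

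Slc6a11 was most like Itgb5 (0.94), followed by Plekhg1, Klf9, Timp3, Aldh1l1, Ppp1r3c, Cbs and Lrig1 (0.90), of which Aldh1l1 is a marker of astrocytes and stands in the astrocyte list. Its r with Gad1, Gad2 and Slc32a1 was -0.38, -0.52 and -0.48.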

How the data were processed

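Cells of the 4 libraries were sorted for green fluorescence and run on the 10x v2 3' kit, per the labels' protocols. The authors deposited raw UMI counts for every gene in every called barcode; the submitters' processing notes name Cell Ranger 1.3.1, mm10 and Seurat. Sources used here do not say how cells were called. Groups follow the labels, and each library is 1 sample, so no test between groups was made.

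Barcodes with under 1000 genes or over 10% mitochondrial UMIs were left out (2, 35, 3 and 5), then the top 0.8% per 1000 barcodes by similarity to simulated doublets (11, 77, 6 and 11). CPM totals were 22273428, 22342855, 23057111 and 11344525 UMIs. Intervals are exact Poisson, Clopper-Pearson or conditional binomial at 95%. The ratio rule was run on simulated Poisson counts, where it called 100% of planted 3-fold and 0% of planted 1.2-fold changes. The simulation held counting error only, so it checks the code and not the calls between libraries. Clusters (scanpy 1.11.5, Leiden from leidenalg 0.10.2, 2000 variable genes, 30 components, 20 neighbours, resolution 1) left out the 4 genes. Clusters were named by the class with the highest mean marker fold if at least 3 markers were detected, the lead was at least 0.1 and no other class had more markers among its top 10 genes; classes with no detected marker were left out of the scores, which was decided after seeing the data.

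Named genes are the 4 members, up to 4 genes per pathway list and comparison with the largest log2 ratio, the 8 genes most like each member, and Nes, Dcx, Emx1, Dlx2, Nkx2-1, Neurod6, Aqp4 and Pdgfra. Genes named as leading a cluster and Slc17a6, Slc6a12 and Slc6a13 were chosen after their values were seen. Members and lists were chosen with earlier results of these data known. Alternatives were totals over all genes, edgeR 4.0.16 TMM scaling, thinning, other filters on barcodes, per-cell means, other CPM minimums and cluster resolutions. Values of some genes that these rules name are not reported here.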

Additional observations from a re-analysis of the deposited data

Results flagged for a closer look

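The change with age of 3 genes had opposite signs in the 2 labelled regions. The log2 ratio of E18.5 over E15.5 was -0.0798 for Gad1 in the cortex-labelled libraries against 1.95 in the GE-labelled ones, -0.38 and 2.01 for Gad2, and -0.58 and 1.69 for Slc32a1. The difference between labelled regions was not tested, since each group holds 1 library, and none of the 3 values in the cortex-labelled libraries passed 2-fold. The signs of Gad1 and Gad2 in the cortex-labelled libraries depended on the processing and that of Slc32a1 did not: over 8 alternatives Gad1 ran from -0.22 to 0.55, Gad2 from -0.52 to 0.01 and Slc32a1 from -0.72 to -0.14, with the upper end from the mean of per-cell CPM in each case. Within GABAergic neuron-like cells of the cortex-labelled libraries the ratios were 1.16, 1.04 and 0.942, or log2 1.69, 0.82 and 0.98 with finer clusters.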

How the results depend on the processing

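No called direction reversed under any alternative run. Of the ratios between libraries, 119 alternatives kept the side of the threshold, 1 passed it and 8 fell below it. Giving each cell equal weight by the mean of per-cell CPM brought Gad1 past the line with age in the GE-labelled libraries (log2 2.58). The labelled region ratios at E18.5 then fell to 0.92 (Gad1), 0.81 (Gad2) and 0.82 (Slc32a1), and with thinning to 0.71, 0.77 and 0.71. Slc32a1 with age in the GE-labelled libraries fell below the call with totals over all genes (1.78) and with TMM (1.51), since its level came to under 20 CPM. In the Dcx split of the GE-labelled E15.5 library, Gad2 passed the call when thinned (log2 1.36) and without cells holding Xist and Y-linked UMIs (2.85). Within classes, Slc6a11 in astrocyte lineage-like cells fell to 0.93 at resolution 0.5, and Gad1 in GABAergic neuron-like cells with age rose to 1.69 at resolution 2. Of the levels in named classes, 22 alternatives moved out of the 95% interval of the main level and 74 stayed in it. Without a minimum, genes called higher and lower numbered 1962 and 195 with age in the cortex-labelled libraries, 2529 and 669 in the GE-labelled ones, 1011 and 1837 between labelled regions at E15.5 and 461 and 1324 at E18.5. With a minimum of 50 CPM they were 135 higher, 350 and 124, 231 and 218, and 58 and 125. With TMM, 54 were lower with age in the cortex-labelled libraries, and 177 and 186 were called between labelled regions at E18.5. No paired analysis was possible because each group holds 1 library. Counting error is widest in the GE-labelled E15.5 library for Slc6a11 and Gad1, whose levels rest on 71 and 95 UMIs.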
